A study of Mus musculus with 6 samples.

Results

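The genes described here encode the proteins of the cytosolic ribosome. Members were taken by name from the deposited table: every name made of Rpl or Rps with a number, Rplp0, Rplp1, Rplp2 and Rpsa, without the S6 kinase names that begin with Rps6k and without names holding a hyphen or a comma. The rule found 84 names among the 29955 in the table. Of these, 43 encode proteins of the large subunit, 30 proteins of the small subunit and 3 the stalk of the large subunit. The remaining 8 are paralogs of ribosomal protein genes or genes of another kind that carry such a name (Rpl3l, Rpl7l1, Rpl10l, Rpl22l1, Rpl36al, Rpl39l, Rps27l and Rps19bp1). Fau and Gnb2l1 also encode ribosomal proteins but lie outside the name rule, and cytosolic Rps23 was not analysed here.

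The cells were MS-1, an immortalised line of mouse endothelial cells derived from pancreatic islets. They had been transfected with an LNA (locked nucleic acid) inhibitor of miR-31, of miR-27 or a negative-control inhibitor, and each of the 3 transfections was kept for 72 h with TGF-β2 at 1 ng/ml or without it. The groups are therefore miR-31 inhibitor with TGF-β2, miR-31 inhibitor without, miR-27 inhibitor with, miR-27 inhibitor without, negative control with and negative control without. The question addressed was what TGF-β2, which drives endothelial cells toward a mesenchymal state, does to the transcriptome and how the 2 microRNAs bear on it. All 6 groups are the same line and all carry an LNA, so no untransfected cells are compared. There was 1 library in each condition, so p-values below come from a fit across the 6 libraries and measure only the spread between these samples.

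Ribosomal proteins join the ribosomal RNAs in the nucleolus to form a small subunit, which reads the messenger RNA, and a large subunit, which makes the peptide bond. Cells make the proteins in matched amounts, and surplus protein is degraded. Most of their mRNAs start with a C followed by a run of pyrimidines, the 5′ terminal oligopyrimidine (TOP) tract, through which mTORC1 signalling controls their translation, and the introns of many of the genes hold small nucleolar RNAs.

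The start of the transcripts was looked at first, because the TOP tract is the shared feature of this family. RefSeq start windows (GRCm38.p6, 15 bases before the annotated start and 15 from it on, on the gene's strand) were found for 63 of the 84 members. A C at the annotated start followed by at least 4 bases that are each C or T stood in 13 of these 63 genes, or 20.6%, against 3.01% of all 27025 genes with a window. By window, the shares were 17.3% of 75 member windows and 2.51% of all 32851 windows. The search was of the gene's strand only, a match is only a description of these letters, and a start annotated a few bases away from the one used in these cells would be missed. The windows below are those of the 4 tract-bearing members with the largest falls under TGF-β2 (Rpl28, Rpl35, Rps18, Rps10), of Rps6, whose protein is the best-known substrate of S6 kinase, of Rps15a, whose level differed least with TGF-β2 among the 13, and of Rps2 and Rps16, which have no such run at the annotated start. Capitals mark the pyrimidine run that begins at the annotated start.
Rpl28 (chr7:4792950-4792979, plus strand): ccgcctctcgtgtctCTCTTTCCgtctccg
Rpl35 (chr2:39005117-39005146, minus strand): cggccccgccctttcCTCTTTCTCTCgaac
Rps18 (chr17:33955651-33955680, minus strand): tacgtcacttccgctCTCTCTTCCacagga
Rps10 (chr17:27635230-27635259, minus strand): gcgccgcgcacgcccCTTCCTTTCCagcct
Rps6 (chr4:86857353-86857382, minus strand): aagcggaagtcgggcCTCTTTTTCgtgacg
Rps15a (chr7:118116133-118116162, minus strand): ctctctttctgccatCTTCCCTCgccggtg
Rps2 (chr17:24720048-24720077, plus strand): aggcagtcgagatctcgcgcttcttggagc
Rps16 (chr7:28350674-28350703, plus strand): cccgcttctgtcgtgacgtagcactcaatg
Mitochondrial ribosomal protein genes, which are not TOP genes, had the motif in 0 of 75 windows, and genes of ribosome assembly in 0 of 45. Translation factors and other TOP mRNAs had it in only 2 of 11 windows, so the search missed many TOP genes. Host genes of small nucleolar RNAs had it in 2 of 7, and ribosomal genes outside the name rule in 2 of 2.

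Values are FPKM, a fragment count divided by the length of the transcript and by sequencing depth, so levels can be set against each other between genes. The steps between low values gave an estimate of each library's depth, resting on 181 to 266 names a library, relative to the negative control without TGF-β2, between 0.817 for the miR-27 inhibitor with TGF-β2 and 0.903 for the miR-31 inhibitor without it. The endothelial label was checked against 10 markers: their summed level was 1489 to 1517 FPKM in the 3 libraries with TGF-β2 and 1342 to 1443 FPKM in the 3 without it, and Cldn5 was at most 0.0359 FPKM. The markers did not move together: of 9 tested, Vwf (3.93), Emcn (0.79) and Eng (0.53) rose with TGF-β2 on the log2 scale, and Kdr (-0.80), Esam (-0.39) and Tie1 (-0.33) fell (limma, adjusted p under 0.05). Summed markers of leukocytes stayed at or under 0.0621 FPKM. Pancreas markers summed to 0.097 to 0.235 FPKM with TGF-β2 and 0 to 0.0318 FPKM without it, and epithelial markers to 0.815 to 1.46 FPKM with TGF-β2 and 0.275 to 0.529 FPKM without it. The part of these marker shifts in the results below was not tested. In bulk RNA, fewer cells of a type and less RNA per cell cannot be told apart.

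Ribosomal protein mRNAs were among the most abundant in these cells. The mean over the 6 libraries exceeded 1000 FPKM for 60 members and 500 FPKM for 72. With short RNAs left out, members made up 61 of the 100 most abundant names. The median member mean was 1704 FPKM over the 81 members tested, against 12.6 FPKM over all 11816 names tested (a mean of at least 1 FPKM). The sum over all members was 133890 FPKM with the miR-31 inhibitor and TGF-β2, 140400 FPKM with the miR-27 inhibitor and TGF-β2 and 131884 FPKM with the negative control and TGF-β2. Without TGF-β2 it was 152433 FPKM with the miR-31 inhibitor, 153745 FPKM with the miR-27 inhibitor and 143490 FPKM with the negative control. Each transfection thus had the lower sum with TGF-β2.

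Among the highest mean levels were those of Rps2 (4410 FPKM), Rpl41 (3915 FPKM), Rpl32 (3899 FPKM), Rps28 (3726 FPKM) and Rpl35 (3623 FPKM). They come from both subunits, and Rpl41 encodes the smallest ribosomal protein. The medians of the classes were close, at 1690 FPKM for 43 large-subunit members and 1725 FPKM for 30 small-subunit members. The 3 stalk genes lay higher, with Rplp1 at 3140 FPKM, Rplp0 at 2783 FPKM and Rplp2 at 1799 FPKM.

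The low end was made up largely of paralogs and of names that share their place in the genome with another name. Rpl34 averaged 30.2 FPKM, and the pseudogene name Rpl34-ps1 at its place had 1480 FPKM. This level of Rpl34 is therefore uncertain, as is that of Rpl31 at 287 FPKM, which shares its place with Gm6635 at 249 FPKM. The other low members were Rps19bp1 at 26.8 FPKM, which encodes a binding partner of Rps19, Rpl7l1 at 66.8 FPKM, which encodes a protein of ribosome assembly, Rpl22 at 155 FPKM and Rps15a at 164 FPKM. In all, 15 members shared a place with another name that is no short RNA, and Rpl29 and Rps4x were listed on chromosomes 1 and 6, where RefSeq places neither of them. Rpl29 and Rps4x are thus read with the same caution.

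Of the 84 members, 3 were listed at 0. Rpl10l and Rpl39l, paralogs of Rpl10 and Rpl39 known for their testis expression, were listed at 0 in all 6 libraries. Rpl3l, the paralog of Rpl3 found in striated muscle, was listed at 0 in 5 libraries and at 0.0132 FPKM with the miR-27 inhibitor without TGF-β2. The remaining 81 were above 0 in every library. A listed 0 is not always a sign of absence in this table, since Eef1a1, the elongation factor every cell uses, was also listed at 0 in all 6.

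**Figure D1:**
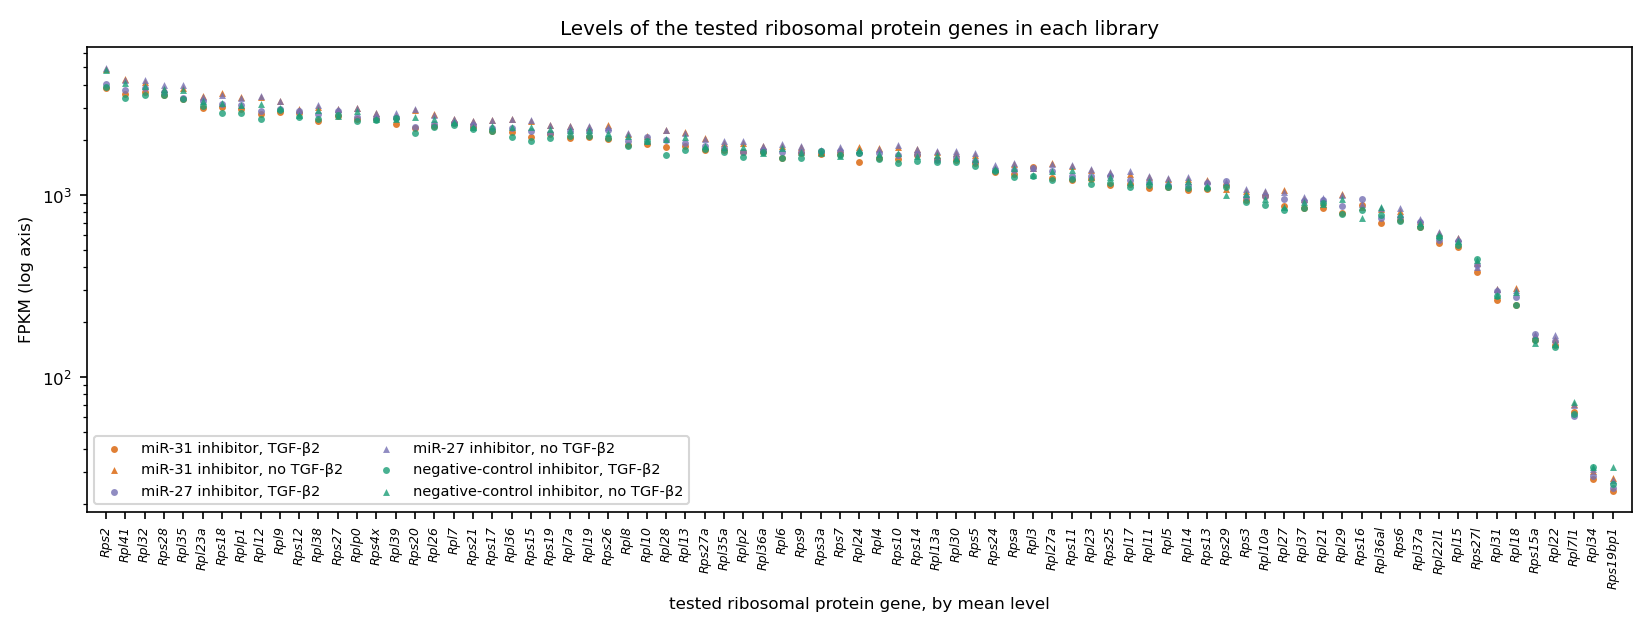
Level (FPKM, log axis) of 79 of the tested members in each of the 6 libraries, ordered by mean level; circles are libraries with TGF-β2 and triangles libraries without it. The levels run from 4410 FPKM for Rps2 to 26.8 FPKM for Rps19bp1, and the 6 libraries of a gene lie close to each other on this scale.

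In each pair of paralogs the same gene was the more abundant in all 6 libraries. Rpl22l1 stood 3.60 to 4.02 times as high as Rpl22, so the paralog was the more abundant of that pair. Rps27 stood 6.12 to 7.36 times as high as Rps27l, which is a target of the tumour suppressor p53 in other cells. Rpl36a stood 1.99 to 2.45 times as high as Rpl36al, and Rpl7 stood 34.5 to 40.8 times as high as Rpl7l1. How reads were divided between similar copies is not given in the sources used here.

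TGF-β2 lowered many ribosomal protein mRNAs by a small amount and raised none past the test. The fitted difference in log2(FPKM + 1), TGF-β2 minus none over the 3 transfections, was below 0 for 79 of 81 tested members, with a median of -0.13, which is 8.75% lower. Of the 81, 38 fell (limma with Benjamini-Hochberg adjustment over all 11816 names, threshold 0.05) and 0 rose. Among all names tested, 27.5% fell and 22.7% rose, and the median difference was -0.02, and the share of members that fell was 46.9%. The 38 falls ranged from -0.13 to -0.32. An unadjusted p under 0.05 (limma, either direction) was found for 53 of 81 members and for 6825 of all 11816 names. In 49 members all 3 libraries with TGF-β2 lay below all 3 without it, an arrangement found in 31.6% of all names tested. In 0 members did they all lie above, against 26.8% of all names, and in 32 members the groups overlapped.

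The differences were less spread among the members than among all names tested. The quartiles of the members lay at -0.18 and -0.08 (log2 difference) and those of all names at -0.19 and 0.15, and the SD of the differences was 0.0766 over members and 0.495 over all names. The members also have high levels, and the part of level in this was not tested. The difference had little relation to the level of the member (Pearson's r = -0.226 and Spearman's rho = -0.273 over 81 members, given as a description).

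**Figure D2:**
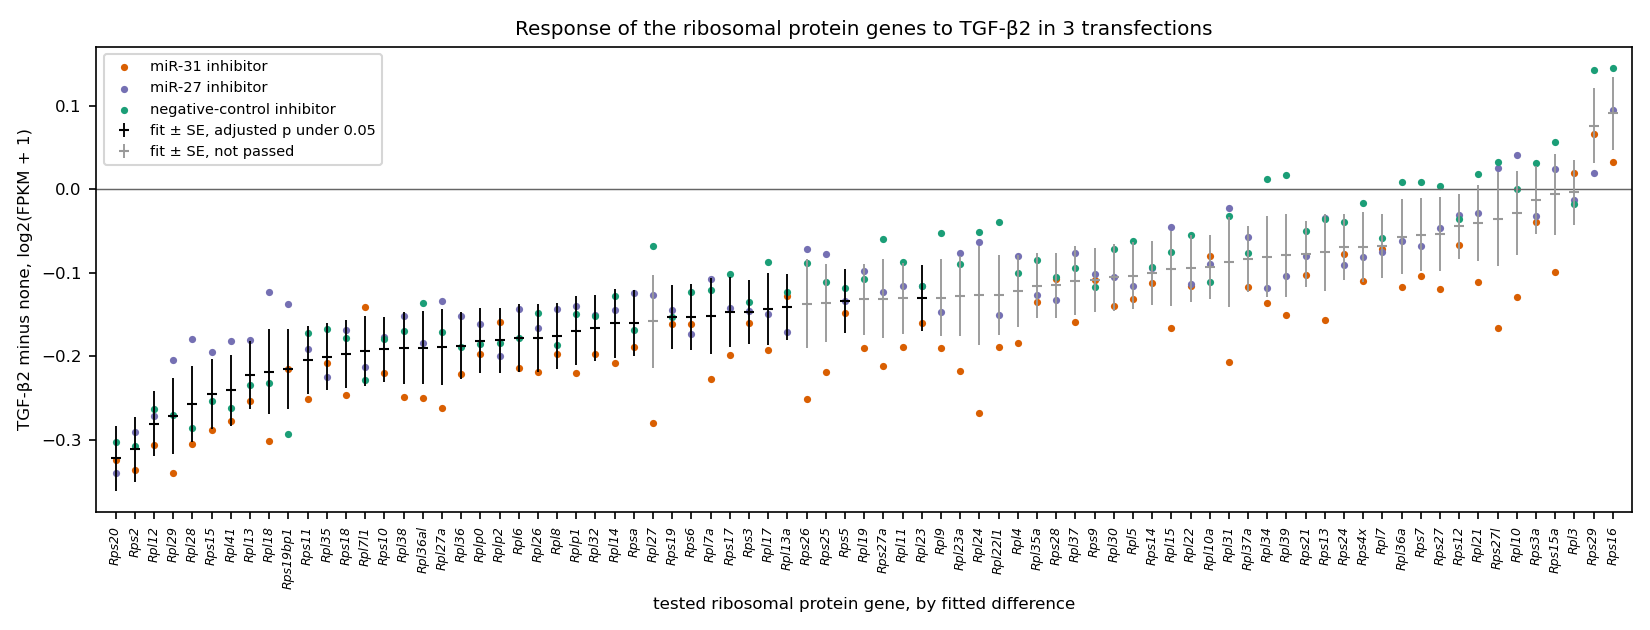
TGF-β2 minus none in log2(FPKM + 1) for 79 of the tested members, ordered by the fitted difference; coloured points are the 3 transfections (1 library against 1 library) and the bar is the limma estimate ± SE over them, black where the adjusted p is under 0.05. Of those drawn, 66 lie below 0 in all 3 transfections, and Rps16 and Rps29 lie above 0 in all 3. Among all names tested, 39.8% lie below 0 in all 3 and 33.5% above 0 in all 3.

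The largest fall was that of Rps20, a protein of the head of the small subunit (mm9 chr4:3761620-3762747). It was at 2334 FPKM (miR-31 inhibitor), 2341 FPKM (miR-27 inhibitor) and 2174 FPKM (negative control) with TGF-β2, and at 2923, 2964 and 2682 FPKM without it; 3 values in a row are those of the miR-31, miR-27 and negative-control inhibitors in this order here and below. All 3 values with TGF-β2 lay below the lowest without it, and the fitted difference was -0.32 ± 0.04 (SE of the fit, 3 pairs of libraries, limma adjusted p = 0.00278). Rps2, a small-subunit protein near the entry of the mRNA channel (mm9 chr17:24857008-24858872), was at 3864, 4052 and 3892 FPKM with TGF-β2, and at 4878, 4957 and 4817 FPKM without it. The groups did not overlap, and the difference was -0.31 ± 0.04 (limma adjusted p = 0.00316). Rpl12, at the base of the stalk where elongation factors bind (mm9 chr2:32817232-32819565), was at 2784, 2896 and 2609 FPKM with TGF-β2, and at 3444, 3498 and 3133 FPKM without it. Here too the groups did not overlap, and the difference was -0.28 ± 0.04 (limma adjusted p = 0.00436).

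The next 5 falls were those of Rpl29, Rpl28, Rps15, Rpl41 and Rpl13, all but Rps15 in the large subunit. Rpl28 was at 1824, 1992 and 1660 FPKM with TGF-β2, and at 2254, 2257 and 2024 FPKM without it, a difference of -0.26 ± 0.05. Rpl41 was at 3584, 3777 and 3409 FPKM with TGF-β2, and at 4345, 4286 and 4087 FPKM without it, a difference of -0.24 ± 0.04. In both genes the miR-27 transfection gave the smallest of the 3 differences. The differences of Rpl29, Rps15 and Rpl13 were -0.27, -0.25 and -0.22, and all 5 had limma adjusted p-values between 0.00779 and 0.0100.

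At the other end stood members with differences near or above 0, and none of them passed the test. Rps16, whose tail reaches the transfer RNA site of the small subunit, was at 877, 949 and 822 FPKM with TGF-β2, and at 857, 889 and 743 FPKM without it. It was higher with TGF-β2 in each transfection while the groups overlapped, and the fitted difference was 0.09 ± 0.04 (limma adjusted p = 0.143). Rps29, a small zinc-binding protein of the same subunit, was at 1124, 1191 and 1098 FPKM with TGF-β2, and at 1074, 1175 and 994 FPKM without it, a difference of 0.08 ± 0.04 (limma adjusted p = 0.212). Rpl3, which reaches to the catalytic centre of the large subunit, was at 1415, 1398 and 1272 FPKM with TGF-β2, and at 1397, 1410 and 1287 FPKM without it. Its 3 differences fell on both sides of 0. Rps15a, Rps3a, Rpl10 and Rps27l had fitted differences between -0.04 and -0.01. Of these 5 with differences just below 0, Rpl3, Rps15a and Rps3a had differences above 0 under both other scalings of the libraries, and Rpl10 and Rps27l under upper quartile scaling.

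**Figure D3:**
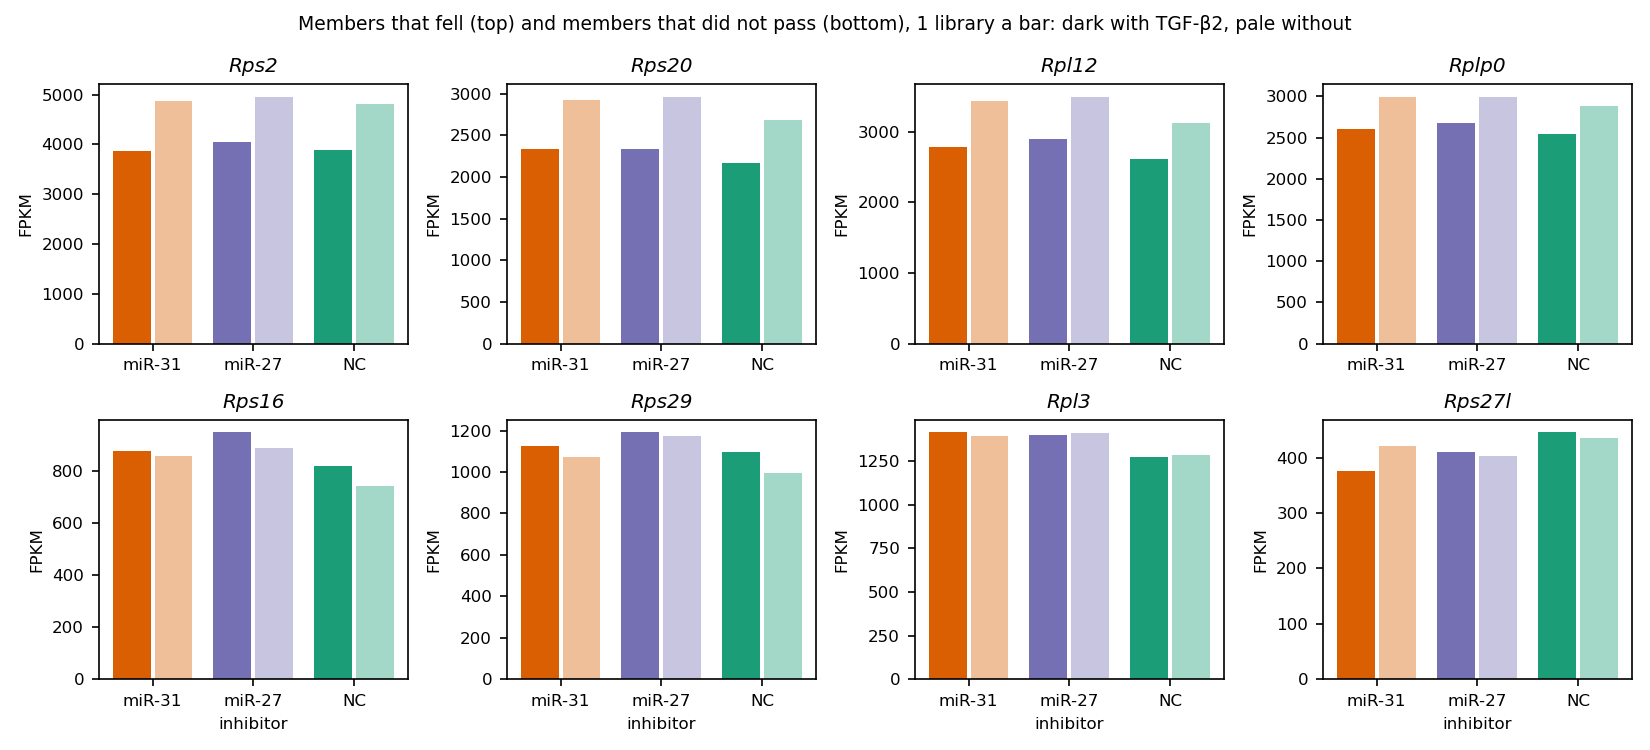
FPKM of 8 members in the 6 libraries, 1 bar a library, dark with TGF-β2 and pale without it, for the miR-31, miR-27 and negative-control (NC) inhibitors; each axis starts at 0. In Rps2, Rps20, Rpl12 and Rplp0 each dark bar is shorter than every pale one, and in Rps16, Rps29, Rpl3 and Rps27l the dark and pale bars overlap.

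The fall ran through both subunits. It was called in 19 of 43 large-subunit members and 13 of 30 small-subunit members, each with a median of -0.13, against 27.5% of all names and a median of -0.02. All 3 stalk genes fell. Rplp0, the scaffold of the stalk, was at 2606, 2678 and 2541 FPKM with TGF-β2, and at 2990, 2995 and 2890 FPKM without it, a difference of -0.18 ± 0.04. Rplp1 and Rplp2, which bind it in pairs and recruit elongation factors, had differences of -0.17 and -0.18, and the 3 limma adjusted p-values lay between 0.0162 and 0.0244. Rps6 had a difference of -0.15 ± 0.04 (limma adjusted p = 0.0285), and Rpsa, which is also known as a laminin receptor, one of -0.16 ± 0.04 (limma adjusted p = 0.0261).

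Rpl5 and Rpl11, which together carry the smallest ribosomal RNA into the large subunit and bind Mdm2 when assembly is disturbed, did not pass. Rpl5 was at 1106, 1134 and 1107 FPKM with TGF-β2, and at 1212, 1230 and 1156 FPKM without it, a difference of -0.10 ± 0.04 (limma adjusted p = 0.0890). Rpl11 had a difference of -0.13 ± 0.04 (limma adjusted p = 0.0565). In both genes the 3 values with TGF-β2 still lay below all 3 without it, an arrangement found in 31.6% of all names tested.

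Among the paralogs and other names, Rps19bp1 (-0.22), Rpl7l1 (-0.19) and Rpl36al (-0.19) fell, with limma adjusted p-values between 0.0169 and 0.0204. Their partners Rpl7 and Rpl36a had differences of -0.07 and -0.06 that did not pass. Rpl22l1 and Rpl22 had differences of -0.13 and -0.09, and Rps27l and Rps27 of -0.04 and -0.05, and none of the 4 passed. Rpl34-ps1 had a difference of -0.13, against -0.08 for Rpl34 at the same place. Gm10653, at the place of Rps2 with 122 FPKM, had a difference of -0.33, close to that of Rps2.

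The 13 members with the TOP motif at the annotated start had differences between -0.26 and -0.01, with a median of -0.16, and 8 of them fell. The 47 tested members with a window but no such motif had a median of -0.13, and 19 fell. Among all tested members 46.9% fell, and among all names 27.5%. Rps15a, with a run of 8 pyrimidines at its annotated start, differed by -0.01, and Rps2, with none there, by -0.31. A TOP tract a few bases from the annotated start would be missed, so the split by motif cannot tell TOP mRNAs from others.

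The number of calls depended on single pairs of libraries. Leaving out 1 library of a transfection leaves its partner with no bearing on the TGF-β2 term, so the fit then rests on the other transfections. The lower count was 3 without either negative-control library, 10 without either miR-27 library and 30 without either miR-31 library, while the share of all names called lower was 16.3%, 17.7% and 27.7%. Between 75 and 78 members lay below 0 in these fits. With upper quartile scaling the count was 25, with 72 members below 0 and 23.0% of all names called lower. With median ratio scaling it was 31, with 75 below 0 and 25.1% of all names called lower. With the 66 tested members that share their place with no other long name and lie on their RefSeq chromosome, 31 fell.

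The responses of the 3 transfections share no library and can be set side by side. The median TGF-β2 minus none difference over the 81 tested members was -0.19 with the miR-31 inhibitor, -0.12 with the miR-27 inhibitor and -0.10 with the negative control. Members below 0 numbered 78, 75 and 68 in the same order, and the change of the summed FPKM over members was -12.2%, -8.68% and -8.09%. Of all names tested, 54.1%, 53.2% and 52.3% lay below 0 in this order, with medians of -0.028, -0.019 and -0.016. No member differed by 0.5 or more in any of the 3, whereas 16.4%, 14.3% and 14.8% of all names tested did. The members stood in a similar order in the 3: over the 81, Pearson's r was 0.725 between the miR-31 and negative-control responses, 0.791 between miR-27 and negative control, and 0.489 between miR-31 and miR-27. Spearman's rho was 0.662, 0.838 and 0.579. The 3 responses share the gene models and the deposited scaling, and members are not independent points.

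Whether the response differed between transfections was tested with an interaction term. For the miR-31 inhibitor against the other transfections, the difference of responses was below 0 for 73 of 81 members with a median of -0.06 (71 with either other scaling). The median over all names was -0.02. limma called 0 of the members, and their smallest adjusted p was 0.232. At an unadjusted p under 0.05 stood 2 of 81 members and 1881 of all 11816 names, in either direction. Among all names 0.381% were called higher and 0.161% lower in this contrast, which has 1 residual degree of freedom before moderation. Among the lowest values were those of Rpl24 (-0.21), Rps27l (-0.20) and Rpl27 (-0.18), and the highest those of Rpl7l1 (0.08), Rpl3, Rplp2 and Rpl10a (0.02 to 0.03). The median SE of a member was 0.0776 here, larger than the median difference. In the same fit 6 of 9 genes of the amino acid and ER stress response were called higher, with a list median of 1.04. Ddit3, a transcription factor of that response, was at 298 FPKM under the miR-31 inhibitor plus TGF-β2, against 59.2 FPKM under this inhibitor alone. Their part in the ribosomal protein values was not tested.

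For the miR-27 inhibitor the interaction had a median of 0.02 over members, against 0.01 over all names. limma called 0 of 81, with a smallest adjusted p of 0.999. At an unadjusted p under 0.05 stood 0 members and 194 of all 11816 names. Among all names 0.0254% were called higher and 0.00846% lower. Rpl18 (0.14), Rpl28 (0.12) and Rps19bp1 (0.12) were among the highest. Rps29 (-0.09), Rpl34 (-0.06), Rpl13a (-0.05) and Rpl35 (-0.04) had the lowest.

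Both microRNA inhibitors went with slightly higher ribosomal protein mRNA than the negative control, and no member passed the test. With the miR-31 inhibitor, 71 of 81 members lay above the negative control in the fit over both TGF-β2 states, with a median of 0.05 against 0.01 over all names. limma called 0 members in either direction, with a smallest adjusted p of 0.242, and among all names 0% were called higher and 0.0339% lower. At an unadjusted p under 0.05 stood 7 of 81 members and 2135 of all 11816 names, in either direction. With the miR-27 inhibitor, 76 of 81 lay above the negative control, with a median of 0.09 against 0.01 over all names. limma again called 0, with a smallest adjusted p of 0.295, and among all names 0% were called higher and 0.00846% lower. Here 16 of 81 members and 1470 of all 11816 names had an unadjusted p under 0.05, in either direction. The counts above the negative control were 69 and 67 for miR-31 and 74 and 74 for miR-27 under median ratio and upper quartile scaling. Both comparisons use the same negative-control libraries, so a shift of those libraries enters both.

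Within TGF-β2 states the 2 inhibitors had different values. With the miR-31 inhibitor and TGF-β2, 48 of 81 members lay above the negative control with TGF-β2 (median 0.02, summed FPKM 1.52% higher). Without TGF-β2, 76 of 81 lay above it (median 0.08, summed FPKM 6.23% higher). With the miR-27 inhibitor, 72 lay above the negative control with TGF-β2 (median 0.09, 6.46% higher) and 75 without it (median 0.09, 7.15% higher). Members above the negative control in both states numbered 47 for miR-31 and 71 for miR-27, against 34.9% and 35.8% of all names tested. The difference between the inhibitors, miR-31 minus miR-27, had a median of -0.04 over members, with 77 of 81 below 0. limma called 0 of them, with a smallest adjusted p of 0.921, and among all names 0% were called higher and 0.0169% lower. At an unadjusted p under 0.05 stood 0 members and 403 of all 11816 names. In libraries with TGF-β2, 76 members lay lower with the miR-31 than with the miR-27 inhibitor, and in libraries without it 53 did.

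The same few genes were at the ends of both inhibitor comparisons. Rpl27, a large-subunit protein, was at 871 FPKM with the miR-31 inhibitor and TGF-β2, 947 FPKM with the miR-27 inhibitor and TGF-β2 and 820 FPKM with the negative control and TGF-β2. Without TGF-β2 it was at 1057 FPKM with the miR-31 inhibitor, 1034 FPKM with the miR-27 inhibitor and 859 FPKM with the negative control. Its fitted differences from the negative control were 0.19 ± 0.07 for miR-31 and 0.24 ± 0.07 for miR-27, with limma adjusted p-values of 0.255 and 0.337. Rps16 had differences of 0.15 and 0.23, and the other highest members were Rpl10a (0.15) and Rps18 (0.15) for miR-31 and Rpl28 (0.21) and Rps29 (0.18) for miR-27. The lowest were Rps19bp1 (-0.15 for miR-31 and -0.15 for miR-27), Rps27l (-0.15 and -0.12) and Rpl34 (-0.14 and -0.10), then Rpl36al (-0.10) for miR-31 and Rpl7l1 (-0.05) for miR-27. All 5 of these lowest names except Rpl34 are paralogs or names of another kind, and Rpl34 shares its place with Rpl34-ps1.

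Between the inhibitors, miR-31 minus miR-27, the lowest members were Rps29 (-0.11), Rpl21 (-0.10), Rpl31 (-0.09) and Rpl38 (-0.09), and the highest Rpl7l1 (0.04), Rpl7 (0.01), Rpl3 (0.0023) and Rpl13a (0.00054). None of these passed.

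**Figure D4:**
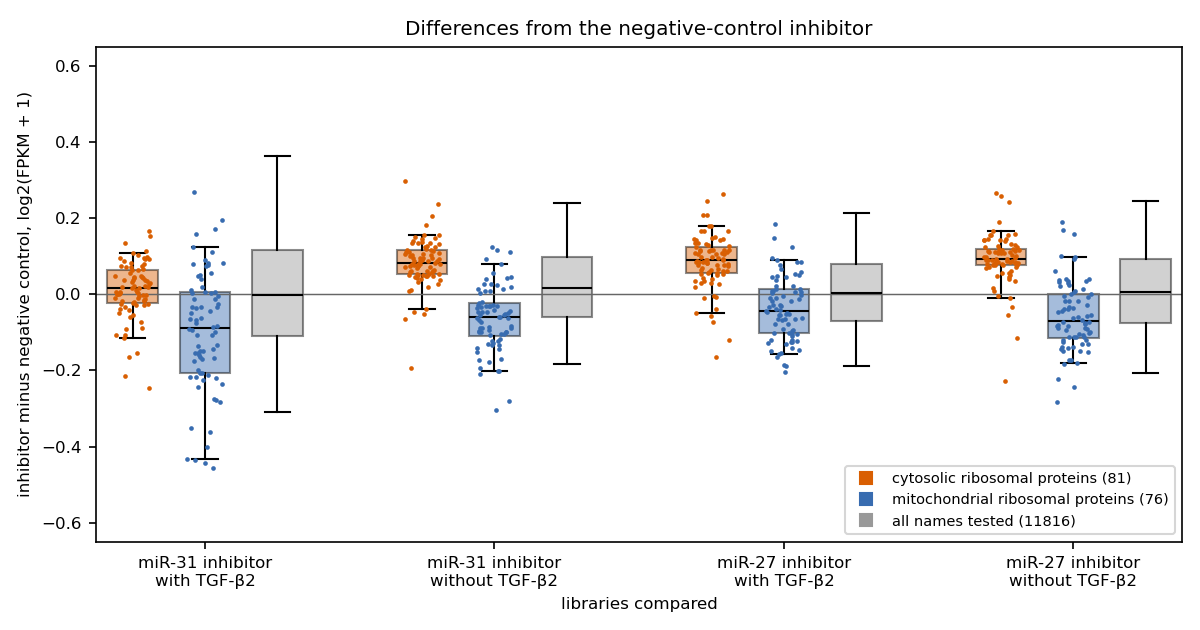
Difference from the negative-control inhibitor in log2(FPKM + 1), 1 library against 1 library, for the 81 tested cytosolic members, 76 mitochondrial ribosomal protein genes and all 11816 names tested; boxes span the quartiles with the median as a line, whiskers the 5th to 95th percentiles, and points are the genes of both ribosomal families. The cytosolic medians are 0.02 and 0.08 for the miR-31 inhibitor with and without TGF-β2 and 0.09 and 0.09 for the miR-27 inhibitor, and the mitochondrial medians lie between -0.09 and -0.04.

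Mitochondrial ribosomal proteins, which build the separate ribosome inside mitochondria, gave a point of comparison. With TGF-β2, 31 of 76 tested fell and 2 rose, against 27.5% and 22.7% of all names. The median of the 76 was -0.13, the same as for the cytosolic members. The falls of Mrps6 (-0.40), Mrps18b (-0.39) and Mrpl54 (-0.38) were the 3 largest, beyond those of the cytosolic members. With the inhibitors the families lay on opposite sides of 0. The mitochondrial genes had a median of -0.08 for miR-31 and -0.05 for miR-27 in the fit, with 61 and 56 of 76 below the negative control, and limma called 0 in both. Whether the families differed from each other was not tested.

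Fau and Gnb2l1, which code for ribosomal proteins outside the name rule, were read beside the members. Fau, whose product is cleaved to a small-subunit protein, was at 1526, 1569 and 1428 FPKM with TGF-β2, and at 1688, 1698 and 1610 FPKM without it, and fell by 0.14 on the log2 scale (limma adjusted p = 0.0344). Gnb2l1, the scaffold protein Rack1 of the small subunit, had a difference of -0.10 that did not pass. Of 15 tested translation factors and other TOP mRNAs, 7 fell and 0 rose, against 27.5% and 22.7% of all names, with a list median of -0.12. Pabpc1, the poly(A)-binding protein, fell most (-0.64), followed by the initiation factor subunit Eif3f (-0.25) and the elongation factor Eef2 (-0.21).

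Genes of ribosome assembly and of ribosomal DNA transcription had a larger median difference. Of 40 tested, 25 fell and 0 rose with TGF-β2, against 27.5% and 22.7% of all names, with a list median of -0.26. Nhp2, a core protein of the RNA-guided pseudouridine synthase, was at 84.1, 102 and 102 FPKM with TGF-β2, and at 148, 149 and 158 FPKM without it, and fell by 0.66 on the log2 scale. Rrp9, of the small-subunit processome, fell by 0.59, and Nop2, a nucleolar RNA methyltransferase, by 0.46. Nolc1 had the lowest difference, -2.21, but did not pass (limma adjusted p = 0.191): it was listed at 0 with the miR-31 inhibitor and TGF-β2 and lay between 55.2 and 72.5 FPKM in the other 5 libraries.

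In the mTORC1 and S6 kinase pathway, which controls TOP mRNA translation and ribosome production, 2 of 16 tested genes rose and 7 fell, with a median of -0.08. Among all names 22.7% rose and 27.5% fell, and the counts of this list and the next 2 lists are read against these shares. Pdcd4, an inhibitor of the initiation helicase that S6 kinase marks for degradation, rose by 0.80, while Eif4ebp1, a repressor of cap-dependent translation, fell by 0.78 and Rptor, the mTORC1 scaffold, fell by 0.67 on the log2 scale. Rps6kb1, the S6 kinase gene itself, had a difference of 0.05 that did not pass. Among 5 tested host genes of small nucleolar RNAs, 1 fell (Snhg6, -0.33) and 0 rose, with a median of 0.08, and Snhg1 (0.18) and Gas5 (-0.17) did not pass. By transfection the median of these host genes was 0.035 with the miR-31 inhibitor, -0.30 with the miR-27 inhibitor and -0.15 with the negative control. The amino acid and ER stress list had 2 rises and 1 fall among 9, with a median of -0.06. By transfection its median was 0.70 with the miR-31 inhibitor, -0.61 with the miR-27 inhibitor and -0.81 with the negative control. In this list Ddit4, an inhibitor of mTORC1, rose by 2.54, Asns, which makes asparagine, fell by 1.16, and Trib3 (-1.11) did not pass.

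**Figure D5:**
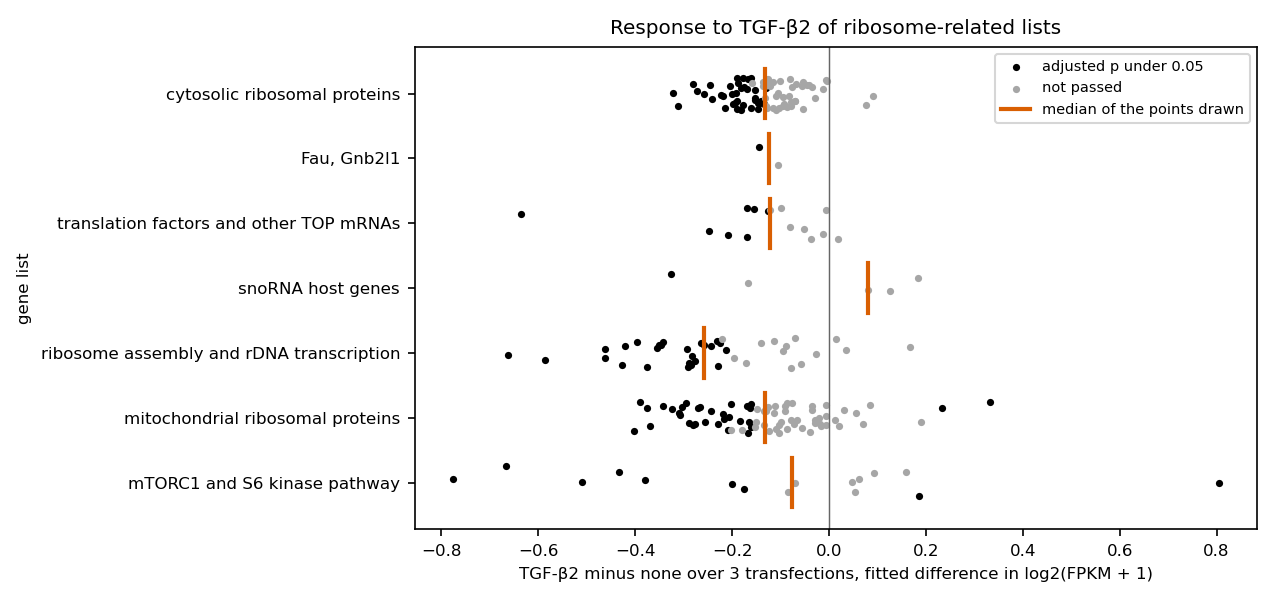
Fitted TGF-β2 minus none difference in log2(FPKM + 1) for tested genes of 7 lists, black where the limma adjusted p is under 0.05, with the median of the points drawn in orange; Nolc1, at -2.21, lies outside the axis and is not drawn. The cytosolic and mitochondrial ribosomal proteins both have a median of -0.13, and the points of ribosome assembly reach further to the left.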

How the data were processed

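RNA from 6 samples was sequenced after ribosomal RNA depletion with a directional kit, per the labels' protocols. The authors deposited 1 table of FPKM with 29955 names. Per the submitters' processing notes, the tools were TopHat2 (2.0.9) with Cufflinks (2.1.1) on build mm9. The annotation and counting options are not given in the sources used here. The listed starts count from 0 (end minus start equalled the RefSeq length for 5685 names, end minus start plus 1 for 384), so printed mm9 starts count from 1. FPKM holds no fragment totals, so no count model was used and no counting interval is given.

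Names with a mean of at least 1 FPKM (11816, of which 81 of 84 members) were tested on log2(FPKM + 1) with limma 3.58.1 in R 4.3.3, 2-sided, Benjamini-Hochberg adjusted over all names at a threshold of 0.05. Inhibitor and TGF-β2 entered an additive model with 2 residual degrees of freedom and a prior of 2.87, and interaction terms had 1. A pseudocount of 1 understates the change of low names. The script was tested on simulated data. Alternatives were a pseudocount of 0.1, no filter or one at 5 FPKM, median ratio and upper quartile scaling, trend with robust moderation, names above 0 only, no inhibitor term, and leaving out each library.

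Members and lists were chosen with earlier results of these data known. Mitochondrial ribosomal proteins were taken by the names Mrpl and Mrps. Genes were named for their level (6 highest, 6 lowest), for TGF-β2 (8 at each end), for the inhibitor and interaction contrasts (4 at each end), as paralogs, by role (Rpl5, Rpl11, stalk, Rps6, Rpsa) and as the 3 largest changes of each list; Rps6kb1, Rps10, Rps18, Rpl35, Ddit3, Eng, Esam and Tie1 among the examples, and the start windows printed, were chosen after their values were seen. Some genes that this rule names are not reported here, and counts include them. Start windows came from RefSeq promoter regions of 300 bases.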

Additional observations from a re-analysis of the deposited data

Results flagged for a closer look

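In 9 genes of the lists beside the ribosomal proteins, and in 0 of the 81 tested members, the TGF-β2 response with the miR-31 inhibitor differed from that of the other transfections in limma's interaction test, which has 1 residual degree of freedom before moderation. The difference of responses in log2(FPKM + 1) was 3.23 for Ddit3, 2.94 for Chac1, 2.22 for Trib3, 1.73 for Sesn2, 1.04 for Ppp1r15a and 0.92 for Ddit4 among the amino acid and ER stress genes, and 1.21 for Snhg12 and 1.12 for Snhg1 among the host genes of small nucleolar RNAs. It was -5.73 for Nolc1, which was listed at 0 with the miR-31 inhibitor and TGF-β2. All 9 rest on that 1 library.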

How the results depend on the processing

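The inhibitor term sets the libraries of a transfection against each other, and without it 31 members fell with TGF-β2. The labels give no replicate numbers, so no other pairing could be tried. The count of members that fell with TGF-β2, 38, was 25 with upper quartile scaling, and 3 to 30 when 1 library was left out. Under the other settings it was 31 to 47, among them the restriction to members alone at their place, which was chosen after seeing the data. The count of rises was 0 under every setting run, and the counts for the inhibitor and interaction contrasts were 0 under every setting run. Some differences near 0 changed sign. With upper quartile scaling Rps27l was 0.0072, Rpl10 0.014, Rps3a 0.030, Rps15a 0.037 and Rpl3 0.040, and with median ratio scaling Rps3a was 0.0093, Rps15a 0.016 and Rpl3 0.019. With 1 library left out, the TGF-β2 difference ran from -0.0701 to 0.0291 for Rps27l, -0.0640 to 0.0209 for Rpl10, -0.0377 to 0.0403 for Rps15a and -0.0148 to 0.0034 for Rpl3. The miR-31 minus miR-27 difference ran from -0.18 to 0.0032 for Rpl31, -0.022 to 0.023 for Rpl13a and -0.015 to 0.019 for Rpl3. The calls of Rpl29, Rpl28, Rps15, Rpl41 and Rpl13 were lost without either negative-control library, with differences of -0.27 to -0.22. Interaction contrasts could not be fitted with a library left out. The cause of these changes was not tested. FPKM keeps no fragment totals, so counting error is part of the spread between libraries.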

Other observations

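The table also lists short RNAs at the places of 22 members, 31 names in all, most of them small nucleolar RNAs hosted in introns. Of these, 22 were listed at 0 in all 6 libraries and 9 were above 0 in all 6. Snora64, at the place of Rps2, was listed at 208062 FPKM (miR-31 inhibitor), 181988 FPKM (miR-27 inhibitor) and 187958 FPKM (negative control) with TGF-β2, and at 197186, 210691 and 189364 FPKM without it in the same order, so the groups overlapped while those of Rps2 did not. Snora65, at the place of Rpl12, was listed at 3902, 1680 and 2135 FPKM with TGF-β2, and at 3490, 3878 and 2295 FPKM without it, and these groups overlapped too. FPKM of names this short is a poor measure of level, and no test was made of them.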
